A study of Homo sapiens with 29 samples.

Results

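The regions described here are stretches of the HCT116 genome with anti-crotonyllysine ChIP-seq signal that lie inside genes but away from gene starts. They are the regions of the deposited ChIP table that are shorter than 10000 bp, overlap the span of a gene in the deposited RNA table and lie more than 2 kb from every gene start in that table. Of 49916 regions, 24571 (49.2%) met this rule. Another 12263 lay within 2 kb of a gene start, 10644 lay outside genes and 2438 were 10000 bp or wider. The rule used position and width only, and no signal value.

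HCT116 is a human colorectal carcinoma cell line, and all libraries come from this 1 line. Control cells received non-targeting siRNA at 25 nM and the others DAXX siRNA at 35 nM, so the arms differ in siRNA dose as well as target. Each arm was kept without or with 10 mM crotonate, for 48 h by the sample protocol and 18 h by the series text. Chromatin was fixed with formaldehyde and precipitated with a pan antibody against crotonyllysine (Kcr), giving 12 libraries numbered 1A, 1B, 2 and 3 in each arm without crotonate and 2 and 3 in each arm with it. Libraries 1A and 1B differed by little more than read sampling and count as 1 sample here, so n = 3 without and n = 2 with crotonate. The single input library is labelled as DAXX siRNA and has no replicate. RNA was sequenced in 16 libraries, 4 for each of the same 4 groups.

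Crotonyllysine is a short-chain acylation of lysine. On histones it is written from crotonyl-CoA by acetyltransferases such as p300 and CBP, removed by class I histone deacetylases and bound by YEATS and double PHD finger domains. Added crotonate can be turned into crotonyl-CoA by the synthetase ACSS2. The mark is known from active promoters and enhancers and is abundant in intestinal epithelium. Sites of marked chromatin inside genes and far from starts commonly include enhancers in introns and alternative promoters. DAXX is a chaperone that deposits the histone variant H3.3 together with ATRX.

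Reads in all regions numbered 2226835 to 3639130 per anti-Kcr library and 1719036 in the input. RNA libraries held 35003617 to 55128007 reads in genes. Values below are scaled reads: the deposited log2 value turned back to the linear scale, in which each library was multiplied by 1 factor. The scaled sum over all regions was 3262872 to 3903846 with non-targeting siRNA and 2840918 to 3166201 after crotonate, and 3243146 to 3723345 against 2902035 to 3357031 with DAXX siRNA. Whether the lower sums with crotonate come from the chromatin or from the libraries was not tested. DAXX transcript was 101 to 105 RPM (reads scaled to library size, not divided by gene length) with non-targeting siRNA and 22.9 to 27.4 RPM with DAXX siRNA. Of 10 colon epithelium markers, 7 were expressed, among them EPCAM and CDX2, while CDX1, LGALS4 and GPA33 were not. None of 4 leukocyte markers was expressed; 2 of 4 fibroblast and 2 of 3 endothelial markers passed the low expression limit, the highest being COL1A1 at 11.1 to 26.9 RPM.

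Some of the regions hold a gene start after all when another annotation is read. RefSeq lists start windows of 300 bases, from 250 before to 50 after each start, and 915 regions (3.72%) contained at least 1 whole window, against 6137 of 12263 regions within 2 kb of a start in the RNA table and 1.96% of those outside genes. In 703 of the 915 the window belonged to the gene the region lies in. RefSeq thus gives these hosts a start other than the one in the RNA table. Which of the starts was in use was not tested. Distances from a gene's start given below are from the start of its span in the RNA table. The 4 windows of this kind with the highest anti-Kcr signal over input (at least 10 input reads) are shown because they are the clearest case in which a site inside a gene is a start. They come from RefSeq on GRCh38.p14, written 5′ to 3′ on the gene's strand, with capitals marking GGGCGG on either strand, the core of KLF and SP factor sites. The windows are chr5:102865573-102865872, plus strand, for PAM, which amidates peptide hormones; chrX:153926215-153926514, minus strand, for ARHGAP4, a GTPase-activating protein; chr11:125887418-125887717, plus strand, for HYLS1, a centriole protein; and chr9:19127443-19127742, minus strand, for PLIN2, a coat protein of lipid droplets.
PAM: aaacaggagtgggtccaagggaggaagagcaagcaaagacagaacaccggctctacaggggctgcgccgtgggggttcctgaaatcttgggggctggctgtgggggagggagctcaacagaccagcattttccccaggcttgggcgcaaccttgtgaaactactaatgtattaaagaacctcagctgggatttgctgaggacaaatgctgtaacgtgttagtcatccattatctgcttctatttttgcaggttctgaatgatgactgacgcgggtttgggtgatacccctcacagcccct
ARHGAP4: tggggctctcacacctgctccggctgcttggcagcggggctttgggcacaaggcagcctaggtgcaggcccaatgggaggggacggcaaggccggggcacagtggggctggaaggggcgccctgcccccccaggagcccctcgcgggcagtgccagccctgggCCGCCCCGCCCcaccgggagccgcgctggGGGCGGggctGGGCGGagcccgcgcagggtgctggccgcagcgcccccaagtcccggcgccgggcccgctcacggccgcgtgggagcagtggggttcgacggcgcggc
HYLS1: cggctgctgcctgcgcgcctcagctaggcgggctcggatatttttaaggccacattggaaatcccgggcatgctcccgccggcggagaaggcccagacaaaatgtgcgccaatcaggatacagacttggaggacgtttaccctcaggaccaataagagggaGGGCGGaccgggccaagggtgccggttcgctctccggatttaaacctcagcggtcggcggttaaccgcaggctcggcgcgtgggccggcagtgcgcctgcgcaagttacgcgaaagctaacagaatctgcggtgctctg
PLIN2: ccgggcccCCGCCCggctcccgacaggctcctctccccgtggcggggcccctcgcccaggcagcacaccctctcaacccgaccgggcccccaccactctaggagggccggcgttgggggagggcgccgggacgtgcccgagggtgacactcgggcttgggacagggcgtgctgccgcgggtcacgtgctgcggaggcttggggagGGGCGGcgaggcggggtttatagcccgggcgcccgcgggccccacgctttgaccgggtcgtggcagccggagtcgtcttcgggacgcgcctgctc
The PLIN2 window lies 21.8 kb inside the span that the RNA table gives the gene, and the start of that span carried no region within 2 kb. The same held for HYLS1, at 4.05 kb. PAM and ARHGAP4 also had a region at the start in the table. The region at the PLIN2 window held 39.9, 46.3 and 43.9 scaled reads in the 3 non-targeting samples against 10.6 in the input, a ratio of 4.1. For PAM the samples were 73.9, 80.4 and 39.9 against 13.8, so the third was well below the other two. ARHGAP4 held 61.3, 46.3 and 53.2 against 11.6.

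Letters of 5 factor motifs were searched in these windows on both strands. GGGCGG stood in 52.1% of 1178 windows inside the regions, in 69.3% of 9790 windows in regions at table starts and in 44.9% of all 34943 windows. TGANTCA, the AP-1 motif, stood in 9.85%, 4.78% and 7.72%. CCGGAAG, of ETS factors, stood in 8.91%, 17.9% and 10.2%. GGAATG, of TEAD factors, stood in 14.3% of windows inside the regions and 14.0% of all, and CTTTGAT, of TCF and LEF factors, in 1.61% and 2.63%. In the 21326 windows outside every region the AP-1, ETS and KLF/SP letters stood in 9.02%, 6.34% and 31.1%. For ETS and KLF/SP the windows inside the regions thus lay between these and the windows at table starts. AP-1 letters stood in 8.66% of the 878 windows that belong to the host gene itself and in 33 of 235 windows in regions outside genes, and none of these shares was tested. The median count of CG in a window was 16, against 26 at table starts and 6 outside every region.

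Some regions also cover microRNA genes. Of 1562 RefSeq hairpins, 115 lay whole inside 110 of the regions. Mature sequences are shown for 3 hairpins in the regions with the highest signal over input, with the seed (bases 2 to 8) in capitals, since these name what the marked site encodes.
hsa-miR-5587-5p: aUGGUCACcuccgggacu
hsa-miR-6823-5p: uCAGGGUUgguagggguugcu
hsa-miR-100-5p: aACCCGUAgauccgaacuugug
The 3 seeds differ. miR-5587 lies in chr16:533701-536400 inside CAPN15, whose mean of 47.7 scaled reads with non-targeting siRNA was 4.5 times the input. miR-6823 lies in chr3:48548701-48551400 inside PFKFB4, a glycolytic regulator, at 67.2 scaled reads and 3.34 times the input. miR-100, which acts on MTOR, lies in chr11:122151151-122153850 inside its host MIR100HG, at 52.8 scaled reads and 3.33 times the input. The levels of these microRNAs were not measured.

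Most regions were short and stood far from any start. Their median width was 1500 bp (quartiles 750 and 3000 bp), against 2700 bp within 2 kb of starts and 1350 bp outside genes. The narrowest width, 300 bp, was that of 1272 regions, and together the regions covered 54.1 Mb. The nearest gene start was a median of 19.1 kb away and at most 623 kb. Of all regions, 13.4% lay 2 to 5 kb from it, 17.2% 5 to 10 kb, 49.2% 10 to 50 kb, 14.4% 50 to 100 kb and 5.87% farther. Another region touched 11.6% of them, and 57.8% had a neighbour within 3 kb, so neighbouring regions can be pieces of 1 marked stretch. The 588 regions just inside the distance limit had a median of 19.5 scaled reads per kb and a log2 ratio over input of 0.97, and the 636 regions in genes just outside it had 19.6 and 1.01. The 233 widest regions that met the width limit had a median log2 ratio over input of 0.89, and the 164 narrowest that missed it had 0.91.

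The regions fell in 9519 of 38148 genes, and 88.8% lay in a single gene span. Hosts were long, with a median span of 50.8 kb against 7.91 kb for other genes. The rule itself favours long hosts, since a short gene has little room more than 2 kb from its start. Of the hosts, 74.3% were expressed (at least 0.25 RPM in at least 4 libraries), against 47.1% of all genes. The latter share includes short genes with little room for such a region. Of the regions, 83.7% lay in at least 1 expressed gene. Of the expressed hosts, 71.7% also carried a region within 2 kb of their own start, as did 37.4% of the hosts that were not expressed.

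Span and expression each went with the number of regions, and a longer span leaves more room for regions that meet the rule. Among expressed genes, a region lay inside 15.4% of those of 5 to 10 kb, 36.2% at 10 to 30 kb, 54.2% at 30 to 100 kb, 71.7% at 100 to 300 kb and 78.3% of longer ones. Among genes not expressed the shares were 10.0%, 19.5%, 25.9%, 28.5% and 28.8%. Per Mb of span there were 24.3 regions in expressed and 16.5 in other genes of 5 to 10 kb, 25.5 and 10.5 at 30 to 100 kb, and 11.9 and 1.83 in genes of 300 kb or more. Genes that overlap share regions, and RPM is not divided by length, so a long gene reaches the expression limit more easily.

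**Figure D1:**
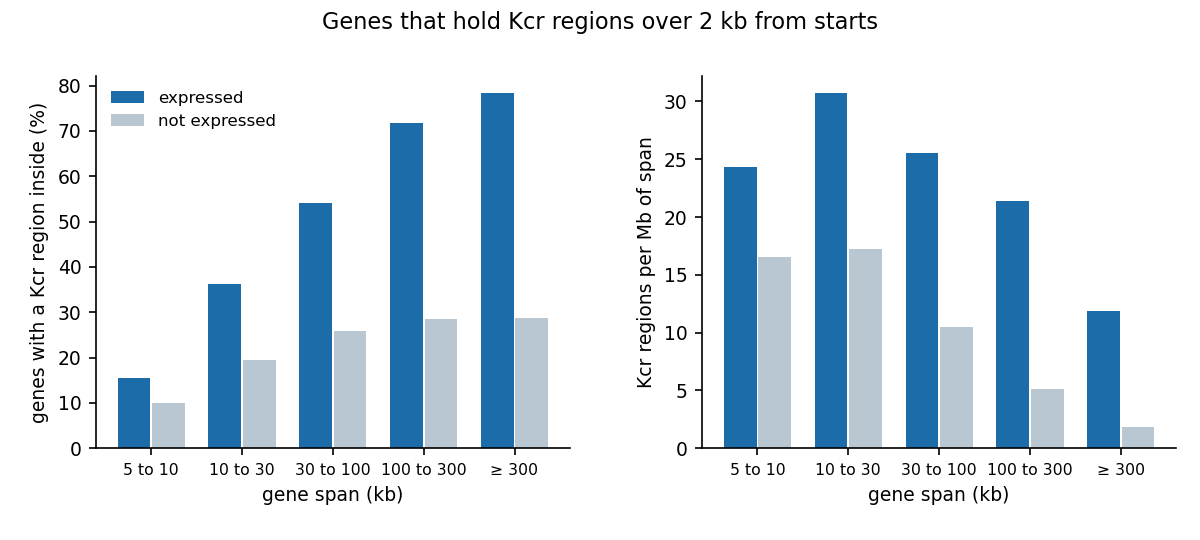
Share of genes with at least 1 Kcr region more than 2 kb from every start (left, percent) and regions per Mb of gene span (right), by gene span in kb, for genes expressed and not expressed in HCT116. Expressed genes are higher in every span class, 78.3% against 28.8% at 300 kb or more.

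Along hosts of at least 50 kb the regions that met the rule were spread nearly evenly. The rule leaves out regions within 2 kb of any start, which takes some of the first stretch. The shares were not adjusted for this. Of 16060 regions in a single such host, 22.4% lay in the first of 5 equal stretches of the span counted from the start, 21.5% in the next, then 19.1% and 18.1%, and 19.0% in the last. Per Mb of gene sequence more than 2 kb from starts, chromosome 19 held 42.7 regions and chromosome 22 held 38.3, while chromosome 13 held 9.22 and chromosome X 3.08. Regions on X also stood out in the input, with a median of 7.06 scaled input reads per kb against 9.41 to 10.9 on the other chromosomes, and their median log2 ratio over input was 1.67 against 0.85 to 1.08. The part of the low X input in this ratio was not tested.

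The 6 hosts with the most regions were all long genes. CAMTA1, a calmodulin-binding transcription activator (chromosome 1, 6785454 to 7769706, plus strand), held 62. PCDH7, a protocadherin (chromosome 4, 30720415 to 31146805, plus strand), held 59, or 13.8 per 100 kb, the densest of the 6. SHANK2, a synaptic scaffold, held 55, PTPRN2 and the recombination gene RAD51B 48 each, and the sorting receptor SORCS2 43. All but PTPRN2 carried a region at their own start. PCDH7 was transcribed at 77.6 ± 18.8 RPM (SD, n = 4, non-targeting siRNA) and SORCS2 at 0.358 ± 0.232 RPM, so many regions were found in hosts of high and of very low RNA. In PCDH7 41 of 59 regions reached at least 2 times the input and the highest log2 ratio was 2.83; in SORCS2 19 of 43 did and the highest was 1.46.

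Anti-Kcr signal per kb in the regions was well above the input in every sample, and below that at starts in all samples but 1. The median region held 21.0, 19.0 and 18.3 scaled reads per kb in the 3 non-targeting samples, against 24.7, 21.5 and 20.7 within 2 kb of starts and 21.1, 18.8 and 18.4 outside genes. The input gave 9.93, 10.8 and 9.88 in these 3 kinds. With DAXX siRNA the regions held 20.1, 20.1 and 18.5, with crotonate 17.9 and 16.8, and with both 18.7 and 17.4. Both crotonate samples of the non-targeting arm lay below its 3 samples without crotonate, and in the DAXX arm the groups overlapped. Set side by side by number, samples 2 and 3 were lower with crotonate in both arms. The values were 19.0 and 17.9, and 18.3 and 16.8, with non-targeting siRNA. With DAXX siRNA they were 20.1 and 18.7, and 18.5 and 17.4. Sample 1, the highest with non-targeting siRNA, had no crotonate sample of its number. The regions took 31.0% ± 0.404 (SD, n = 3) of all scaled reads with non-targeting siRNA and 31.8% in the input. Against input, 47.7% of the regions reached at least 2-fold in the non-targeting mean, the median log2 ratio was 0.98, 5% lay at 0.45 or below and 5% at 1.97 or above. Only 29 regions were below the input. The derivation of the regions is not given, so they may have been chosen for signal over input. The part of such a choice in these values was not tested.

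**Figure D2:**
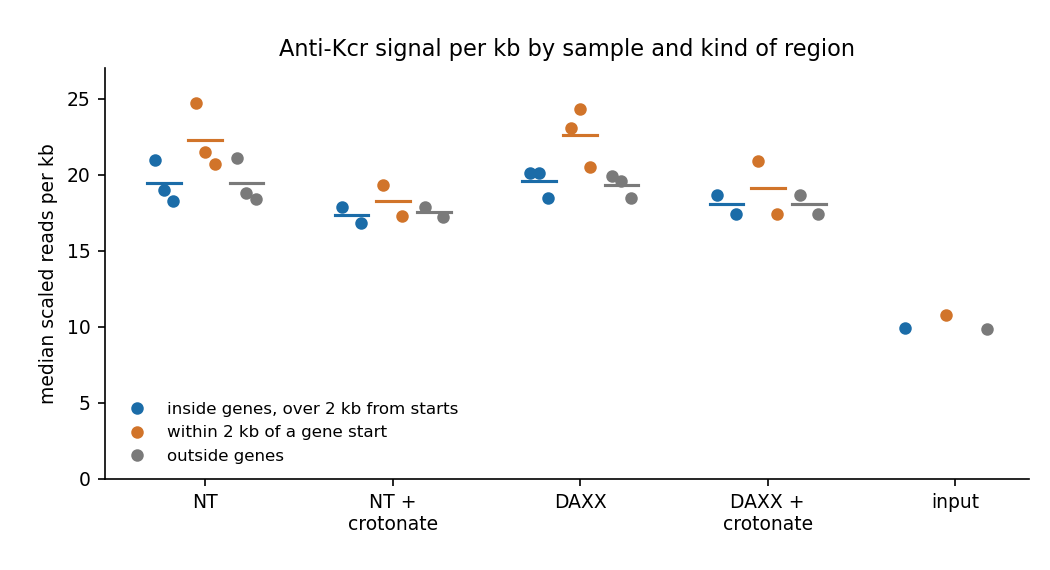
Median scaled reads per kb in regions inside genes, at gene starts and outside genes, 1 point per sample with 1A and 1B as 1, bars at group means; NT is non-targeting and DAXX is DAXX siRNA. Regions inside genes sit at 16.8 to 21.0 in all anti-Kcr samples and at 9.93 in the input.

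The gap between regions inside genes and those at starts was narrower in samples with crotonate. The ratio of the 2 medians was 0.85, 0.882 and 0.884 with non-targeting siRNA and 0.93 and 0.97 after crotonate, with no overlap. With DAXX siRNA it was 0.869, 0.824 and 0.902, and with crotonate 0.895 and 1.0, which overlap. Between samples of the same number the ratio was higher with crotonate in both arms. With DAXX siRNA it was 0.824 and 0.895 for number 2, and 0.902 and 1.0 for number 3. The input gave 0.92. Divided by the input, the mean ratio was 0.948 without and 1.03 with crotonate in the non-targeting arm.

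Signal over input in the regions differed little across expression and distance classes. Regions in expressed hosts and the 3993 without an expressed host both had a median log2 ratio over input of 0.98. Those within 10 kb of a start had 0.96 and those over 50 kb away 1.03. The ratio differed more by width: the 7812 narrowest regions (median 600 bp) had 1.22 and the 6190 of 3000 bp or more had 0.84. Whether narrow regions needed a higher ratio to enter the ChIP table was not tested. In a narrow region the input held few reads, with a median of 14 over all the regions, so its ratio is less precise. Regions with a RefSeq start window had a median of 0.99 and those without 0.98.

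The 5 regions with the highest ratio over input, at 10 or more input reads, were led by MTHFD1L. This gene encodes a mitochondrial enzyme of folate metabolism that makes formate, and its region, chr6:151040101-151042200, lies 176 kb from the gene's start. It held 70.3, 59.9 and 57.1 scaled reads with non-targeting siRNA against 10.6 in the input, 5.9-fold, where counting error of the input alone (95% exact Poisson interval) allows 3.21 to 12.3. With crotonate it held 60.6 and 45.4, with DAXX siRNA 64.9, 68.8 and 48.7, and with both 70.8 and 31.3, so groups overlapped. The region in TLK1, a kinase of histone chaperones (chr2:171159451-171162150, 70.5 kb from its start), held 95.9, 74.9 and 69.1 against 16.9. After crotonate it held 49.8 and 43.1, below all 3 controls (log2 -0.77, SE 0.251), and was not called (limma adjusted p = 0.246). The other regions of the 5 lay in PAM (4.7-fold), ARHGAP4 (4.6-fold) and the overlapping spans of AOX3P-AOX2P and LINC01792 (5.0-fold); those in PAM and ARHGAP4 hold the start windows shown above.

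Genes of 9 lists were looked up among the hosts. Their regions are described beside all 24571, of which the median log2 ratio over input was 0.98 and 47.7% reached 2-fold; no list is called different from that. Of genes that write, remove or bind Kcr, 16 of 29 measured held 41 regions (median 1.11, 61.0% at 2-fold). ACOX3, a peroxisomal oxidase that can make crotonyl-CoA, held 7 and CREBBP, which encodes CBP, held 4. Among H3.3 chaperones and DAXX partners, 14 of 26 held 42 regions (1.01, 52.4%), with 10 in the DNA methyltransferase gene DNMT3A, 8 in the kinase gene HIPK2 and 5 in UHRF1; DAXX itself held none.

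Signalling and adhesion lists are given next. Of Wnt target and stem cell genes, 11 of 24 held 62 regions (0.98, 46.8%), with 21 in the receptor gene EPHB2 and 14 in ZNRF3, a ligase that removes Wnt receptors. Of MAPK and AP-1 genes, 13 of 28 held 63 (1.01, 50.8%), with 18 in EGFR, 11 in SPRED2 and 10 in MET. Of actin, integrin and focal adhesion genes, 25 of 30 held 130 (1.0, 50.8%), with 20 in MYO1E and 14 in CAV2. YAP and TEAD targets held 88 regions in 13 of 22 genes (1.05, 54.5%), with 18 in TEAD1 and 14 in PTPN14. Junction and keratin genes held 59 in 16 of 26 (1.03, 55.9%), with 15 in CTNNA1 and 8 in CTNND1, the genes of alpha and p120 catenin.

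Short housekeeping genes and neuronal genes, of which 7 of 24 were expressed, held few. Metabolic housekeeping genes, with a median span of 8.73 kb, held 7 regions in 5 of 20 genes (1.52, 85.7%), although 19 of the 20 had a region at their own start. Of these 7, 3 lay in PGK1 on chromosome X, where the input was low. Neuronal genes, with a median span of 1370.0 kb, held 31 in 9 of 24 (1.07, 64.5%), of which 20 lay in GRIN2B, an NMDA receptor gene that was expressed here at 39.1 ± 4.34 RPM (SD, n = 4). Only 1 of the 24, SYT1, had a region at its own start, and GRM7 and ERBB4, neither of them expressed, held 1 region each.

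In each list the region with the highest signal per kb was followed through the samples. The region in EGFR, the receptor of epidermal growth factor (chr7:55128601-55135500, 6900 bp, 113 kb from its start), held 241.0, 215.0 and 187.0 scaled reads with non-targeting siRNA and 211.0 and 160.0 after crotonate, against 67.7 in the input. With DAXX siRNA it held 253.0, 261.0 and 179.0, and with both 244.0 and 163.0. All 4 groups overlapped. The region in EPCAM, the epithelial adhesion molecule, was chr2:47368201-47371500. It lay 24.7 kb from the start that the RNA table gives the gene. It held 106.0, 104.0 and 104.0 and then 61.9 and 65.8 after crotonate. The log2 difference of -0.71 (SE 0.188) did not pass adjustment (limma adjusted p = 0.212). With DAXX siRNA the region held 97.2, 114.0 and 90.9, and with crotonate 78.6 and 66.5. In both arms the crotonate samples lay below all samples without it, and neither difference was called (limma adjusted p = 0.538 with DAXX siRNA). The region in NCL, the nucleolin gene, contains 1 whole RefSeq start window. It held 155.0, 133.0 and 94.4 against 109.0 and 105.0 after crotonate, which overlap. The chosen regions of HDAC2, USP7, LRIG1, LAMC1, PTPN14 and GRIN2B were 300 to 600 bp wide and had 1 to 6 input reads, so their ratios over input carry little precision.

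**Figure D3:**
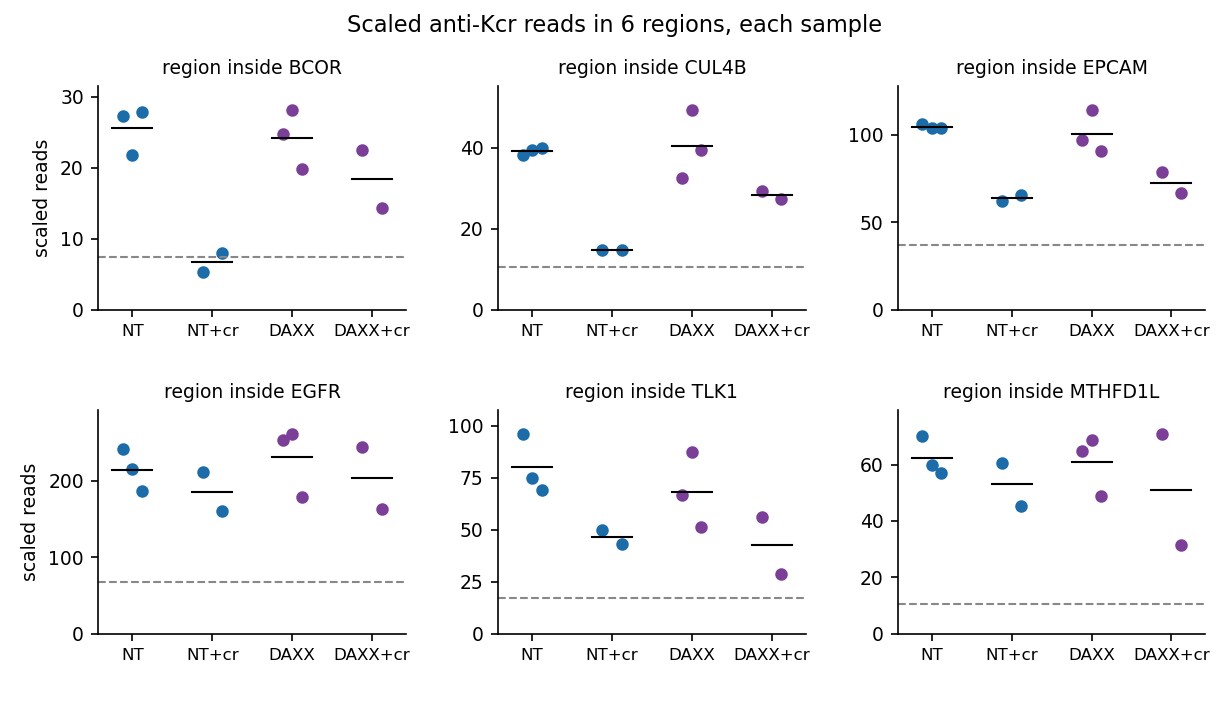
Scaled anti-Kcr reads in 6 named regions inside genes, 1 point per sample, bars at group means and a dashed line at the single input; NT is non-targeting siRNA, DAXX is DAXX siRNA and cr is crotonate. In BCOR, CUL4B, EPCAM and TLK1 the 2 NT samples with crotonate lie below the 3 without it, and in EGFR and MTHFD1L they overlap. None of the 6 was called, and BCOR and CUL4B were picked for the smallest p in this comparison. The share of all regions without overlap was not counted.

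The first comparison asks whether crotonate altered Kcr in cells with non-targeting siRNA. No region inside a gene was called (limma on log2 values, adjusted p under 0.05 over all 49916 regions), and 0% of all regions were. At an unadjusted p under 0.05 there were 2176 of 24571 (8.86%), of which 2037 were lower with crotonate. At starts 23.9% had such a p, and outside genes 7.7%. The median log2 difference was -0.15 inside genes, with 70.1% of regions lower, against -0.29 at starts and -0.13 outside genes. With samples 2 and 3 only, the median inside genes was -0.10. Centring each library on its median region adds 0.17 to every difference and turns the median inside genes to 0.02 while that at starts stays below 0 at -0.12. Quantile normalization gives 0.03 inside genes and -0.08 at starts. The direction inside genes thus depends on the scaling. limma-voom on the recovered reads also called 0 regions inside genes. With a replicate block the limma fit called 62 inside genes (0.252%, against 0.821% of all regions), all lower. With only the 2 groups compared, limma called 23 inside genes (0.0936%, against 0.128% of all regions), and without replicate 2 of the crotonate samples 24 (0.0977%, against 0.0881%), all lower.

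The region closest to a call lay in BCOR, a corepressor that works with BCL6 and a variant Polycomb complex. At chrX:40102051-40103250, 74.7 kb from the gene's start, it held 27.3, 21.8 and 27.9 scaled reads without and 5.38 and 7.94 with crotonate, a log2 difference of -1.96 (SE 0.335, limma adjusted p = 0.0725). The input held 7.41, so the crotonate samples were at the level of the input. With DAXX siRNA it held 24.8, 28.1 and 19.8 without and 22.5 and 14.3 with crotonate, which overlap. Next was the region in CUL4B, a ubiquitin ligase scaffold (chrX:120549151-120550950, 25.7 kb from its start), with 38.1, 39.5 and 39.9 and then 14.8 and 14.7 (-1.40, SE 0.258, limma adjusted p = 0.127). With DAXX siRNA it held 32.5, 49.2 and 39.5, and then 29.2 and 27.4. The log2 difference was -0.42 for BCOR and -0.49 for CUL4B in the DAXX arm (limma adjusted p = 0.721 and 0.601). The difference between the arms was 1.55 (SE 0.473) for BCOR and 0.91 (SE 0.364) for CUL4B and was not called (limma interaction, adjusted p = 1 for both). No region inside a gene was called for it, and 854 (3.48%) had an unadjusted p under 0.05. Both regions lie on X. The smallest p in the higher direction came from TAFA5, where 5.92, 4.09 and 5.32 scaled reads became 16.2 and 20.4 (log2 1.85, limma adjusted p = 0.232), and from CHCHD6, a cristae protein, where 9.75, 6.81 and 14.6 became 26.9 and 21.5. Both rest on few reads, with an input of 4.23 scaled reads.

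Treating 1A and 1B as separate samples called 28 regions inside genes (0.114%), all lower with crotonate (limma adjusted p under 0.05), against 0.194% of all 49916 regions. The p-values of that fit count 2 libraries that differed by little more than read sampling as independent. They included 2 in BCOR, 1 in CUL4B, 1 in JAK3, the kinase of cytokine receptors, 1 in RTN4R and 1 in MIR100HG. The widest stretch among the first 3, chr5:177451801-177461100, overlaps DBN1 and PRR7 and went from 326.0, 268.0 and 242.0 to 159.0 and 173.0 (-0.74, SE 0.167 with 1A and 1B as 1 sample).

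Regions with a RefSeq start window leaned toward regions at starts. Of the 915, 20.3% had an unadjusted p under 0.05 for crotonate with non-targeting siRNA and the median log2 difference was -0.26. Without a window it was 8.41% and -0.15. In the DAXX arm the shares were 11.7% and 5.95% and the medians -0.21 and -0.12. Those with a window were also wider, at a median of 3150 bp against 1500 bp, and among all regions inside genes the share with such a p was 6.03% in the narrowest class and 12.4% at 3000 bp or more. The part of width was not tested.

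The second comparison asks the same in cells with DAXX siRNA. No region inside a gene was called by limma or limma-voom (0% of all regions), 1515 (6.17%) had an unadjusted p under 0.05, and 1346 of these were lower. The median log2 difference was -0.12 inside genes and -0.24 at starts, and after centring 0.01 and -0.11. With samples 2 and 3 only, the median inside genes was -0.11. The smallest p belonged to a region in ABR, a regulator of small GTPases (chr17:1207951-1208850), where 23.7, 16.9 and 19.8 scaled reads became 4.49 and 5.21 (-2.04, SE 0.422, limma adjusted p = 0.357). With non-targeting siRNA the same region was at 20.6, 28.6 and 9.3 and then 16.2 and 10.2, which overlap. In ZDHHC14, a palmitoyltransferase gene, chr6:157534651-157536600 went from 46.3, 49.2 and 46.1 to 20.2 and 22.2, and in the non-targeting arm from 49.3, 44.9 and 39.9 to 39.0 and 23.8. In the higher direction the smallest p came from ABCA1, the cholesterol exporter (8.07, 4.21 and 7.91, then 20.2 and 18.2), and PRMT8, an arginine methyltransferase gene (mean 17.5 ± 10.6 (SD, n = 3), then 34.1 ± 5.81 (SD, n = 2)). Leaving out replicate 2 of the DAXX siRNA samples with crotonate gave 118 calls inside genes, 0.48% of these regions, and called 0.791% of all regions, all lower.

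DAXX siRNA without crotonate showed the smallest differences. No region inside a gene was called by limma or limma-voom (0% of all regions), 670 (2.73%) had an unadjusted p under 0.05, 344 higher and 326 lower, and the median was 0.01. The median SE was 0.257, so single regions were measured too coarsely for small differences to show. The smallest p in the higher direction lay in ACADM, the medium-chain acyl-CoA dehydrogenase gene (chr1:75765151-75766500), with 15.7 ± 8.64 scaled reads and then 31.4 ± 8.11 (SD, n = 3; log2 1.15, SE 0.303, limma adjusted p = 1.0). In the lower direction ACSL1, an acyl-CoA synthetase gene, had 21.3, 23.2 and 21.3 and then 11.5, 9.83 and 9.22, and HDAC4 had 15.5, 15.0 and 15.9 and then 9.3, 2.81 and 3.95. In these 3 the groups did not overlap, but they were picked for small p values among 24571 regions. How many of all regions show no such overlap was not counted.

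DAXX siRNA in the presence of crotonate also gave no call inside genes by limma or limma-voom (0% of all regions), with 1085 (4.42%) at an unadjusted p under 0.05, 708 of them higher, and a median of 0.05 that centring brings to 0.01. This comparison shares its samples with the crotonate comparisons. The smallest p values came from ACYP2 and PKP2 in the higher direction and PEPD and PHF8 in the lower. In PKP2, which encodes the desmosomal plakophilin (chr12:32891401-32892750), 12.6 ± 5.01 scaled reads stood against 30.7 ± 1.05 with DAXX siRNA (SD, n = 2) (1.34, SE 0.327, limma adjusted p = 0.999), and the samples without crotonate held 23.9 to 39.3. In PEPD, a dipeptidase gene, 31.0 and 29.5 stood against 13.5 and 10.4. PHF8, a histone demethylase gene on X, had 18.8 and 15.9 against 6.74 and 2.61.

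**Figure D4:**
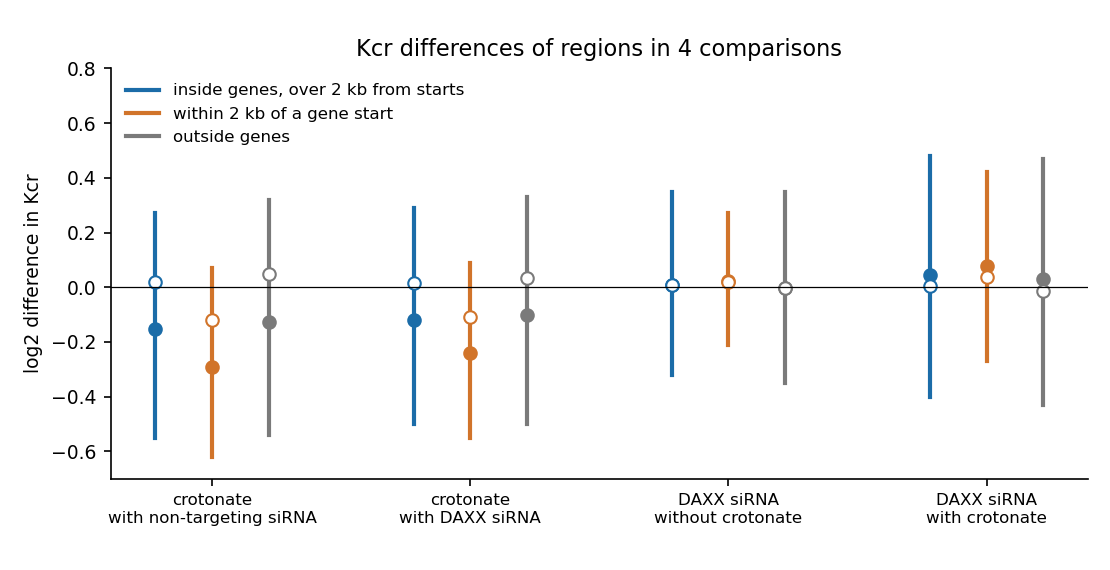
Log2 difference in Kcr in the 4 comparisons for regions inside genes, at starts and outside genes; filled points are medians, open points medians after centring each library, and lines run from the 10th to the 90th percentile of regions. Crotonate medians inside genes are -0.15 and -0.12 as deposited and 0.02 and 0.01 after centring, while those at starts stay below 0.

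RNA of many host genes was called with crotonate, while Kcr gave no call inside genes in the main fit. The 2 tests are not alike. RNA had 4 libraries in each group. Kcr had 3 samples without and 2 with crotonate, and a median of 20 to 29 reads per region in a library. Of 9519 hosts, 7070 had enough RNA to test. With non-targeting siRNA 1240 (17.5%) rose and 192 (2.72%) fell (limma adjusted p under 0.05), against 13.1% and 2.34% of all 17973 genes tested. With DAXX siRNA 1358 (19.2%) rose and 144 (2.04%) fell, against 13% and 2.41%. The split rests on scaling: centring lowers every crotonate difference by 0.13 and 0.12, and gave 784 higher and 739 lower in the first and 870 and 506 in the second. Quantile normalization gave 777 and 407, and 874 and 304. DAXX siRNA alone raised 9 hosts (0.127%) and lowered 35 (0.495%), against 0.1% and 0.306% of all genes. With crotonate present it raised 48 (0.679%) and lowered 67 (0.948%), against 0.389% and 0.668%. Hosts are longer and more often expressed than other genes, and no test was made of the small excess in these shares.

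The hosts with the largest RNA response to crotonate were genes of low level. EFHD1, a mitochondrial calcium-binding protein gene with 3 regions, was at 0.292, 0.293, 0.0802 and 0.122 RPM without and 1.64, 1.42, 1.15 and 1.24 RPM with crotonate in the non-targeting arm (log2 2.99, SE 0.681, limma adjusted p = 0.00456). It rose in the DAXX arm too (3.57). SLC8A2, a sodium-calcium exchanger gene with 2 regions, went from 0.642, 0.788, 0.455 and 0.489 to 2.51, 2.47, 3.59 and 3.70 RPM, and RSPO1, an R-spondin ligand gene with 4 regions, from a mean of 0.244 to 1.10 RPM. In the DAXX arm PLXNA2, a semaphorin receptor gene with 6 regions, went from 0.939, 0.582, 0.567 and 0.625 to 4.63, 4.93, 3.49 and 4.93 RPM, and SYN1, a synaptic vesicle protein gene with 1 region, from a mean of 0.278 to 1.66 RPM. None of their regions was called. In EFHD1 all 3 regions had log2 Kcr differences below 0 (-0.44 to -0.10), and in PLXNA2, with DAXX siRNA, they ran from -0.37 to 0.80, with 4 of 6 below 0. Of all regions inside genes, 70.1% were below 0 in the non-targeting arm and 67.3% in the DAXX arm, a direction that depends on the scaling.

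On the deposited scale fewer hosts fell with crotonate, and the named ones changed by less. After centring, 784 hosts were higher and 739 lower in the non-targeting arm, and 870 and 506 in the DAXX arm. TNFSF18, the GITR ligand gene, went from 2.95, 2.59, 2.94 and 3.64 to 1.01, 0.963, 1.28 and 1.45 RPM (-1.38, SE 0.21, limma adjusted p = 0.000124) and from a mean of 3.32 to 1.09 RPM in the DAXX arm. KRT7, a simple epithelial keratin gene, went from a mean of 7.81 to 3.47 RPM, and NPR2, a natriuretic peptide receptor gene, from 3.94 to 1.83 RPM in the DAXX arm. KLRC4-KLRK1 is a readthrough that shares sequence with its 2 neighbours, so its fall (-1.06 and -1.59) is uncertain. Each of these 4 hosts held 1 region, and each had a region at its own start.

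Hosts with the largest RNA change after DAXX siRNA included GAS6. GAS6, the ligand gene of TAM receptor kinases (chromosome 13, 113820549 to 113864076, minus strand), held 8 regions in 43.5 kb and rose from 73.7, 97.2, 71.0 and 69.5 to 119.0, 124.0, 121.0 and 148.0 RPM (log2 0.72, SE 0.111, limma adjusted p = 0.0023). Its 8 regions had log2 Kcr differences of -0.36 to 0.33, with 3 below 0 and 5 above. HMGA2, a chromatin architectural gene with 4 regions, rose by 0.82 and its regions ran from -0.65 to 0.11. NRP1, a coreceptor gene, rose by 0.66, and by 0.97 with crotonate. IGSF3, from 58.6, 67.4, 59.3 and 62.8 to 29.4, 33.8, 26.2 and 27.9 RPM (-1.09), MAP3K3, a MAP kinase gene (-1.08), and SPARC, a matrix glycoprotein gene (-0.92), fell, and fell again with crotonate (-1.27, -1.28 and -1.67). None of the 3 had a region at its own start, and each held 1 region inside, with Kcr differences of 0.32, -0.04 and -0.15. With crotonate MDGA1, an adhesion gene with 6 regions, rose from a mean of 11.1 to 24.0 RPM and SPNS3 from 0.630 to 1.48 RPM.

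RNA calls of the lists are given as counts, which cover all genes of a list that were tested, with or without a region. Over all genes tested, 13.1% rose and 2.34% fell with crotonate in the non-targeting arm, and 13% and 2.41% in the DAXX arm. Of 18 Wnt target and stem cell genes 12 rose and 0 fell in the first and 10 and 0 in the second. After centring the counts were 8 and 4, and 9 and 1, and after quantile normalization 9 and 0, and 7 and 0. EPHB2, with 21 regions, rose by 0.89 and 0.99 on the log2 scale and NKD1, a Wnt inhibitor gene with 8, by 1.16 and 1.0. In the non-targeting arm 18 of 21 regions at EPHB2 had Kcr differences below 0 (median -0.15), and 8 of 8 at NKD1 (median -0.17). Of all regions inside genes 70.1% did (median -0.15), a direction that depends on the scaling. Of 28 MAPK and AP-1 genes 10 and 9 rose and 0 fell (7 and 3, and 7 and 2 after centring; 8 and 1, and 6 and 0 after quantile normalization). DUSP4, an ERK phosphatase gene, rose by 0.35 and 0.39, but EGFR, SPRED2 and MET, which hold most of the regions, did not pass the test in either arm.

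In the other lists the counts also moved with the scaling. Of 29 actin, integrin and focal adhesion genes 9 rose and 2 fell, and 9 and 3 in the DAXX arm (5 and 5, and 7 and 4 after centring), with CAV1, the caveolin gene, at -0.82 in both. Of 26 junction and keratin genes 2 rose and 3 fell, then 4 and 4 (1 and 7, and 0 and 7 after centring). Of 29 Kcr writers, erasers and readers 4 rose and 4 fell, then 5 and 0 (3 and 6, and 4 and 3). Of 26 H3.3 chaperones and DAXX partners 1 rose and 2 fell, then 2 and 3 (1 and 7, and 1 and 5). Of 21 YAP and TEAD targets 2 rose and 3 fell, then 3 and 2 (2 and 7, and 2 and 3). Of 20 metabolic housekeeping genes 0 rose and 2 fell, then 0 and 3; the fallen were 12 and 8 after centring and 0 and 0 after quantile normalization. Of 7 neuronal genes 1 rose and 0 fell, then 2 and 0 (1 and 0 in both after either scaling). Among Kcr readers MLLT3, which encodes the YEATS protein AF9, rose by 1.14 and 0.92; its 1 region had a Kcr difference of -1.54 in the non-targeting arm, which was not called. In none of the 9 lists was a region called in any comparison, and the median Kcr difference with crotonate ran from -0.29 in housekeeping genes to -0.07 in Kcr genes in the non-targeting arm. UHRF1 fell with DAXX siRNA (-0.55, and -0.63 with crotonate) and so did GRIN2B (-0.67 and -0.52).

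Kcr differences were set beside the RNA call of the host. With non-targeting siRNA, 4428 regions in 1240 hosts whose RNA rose had a median log2 Kcr difference of -0.13, 15870 in hosts not called -0.17, and 578 in 192 hosts whose RNA fell -0.21. In the DAXX arm the medians were -0.10, -0.14 and -0.22. The order was the same in both arms, while the quartiles were -0.32 and 0.07 in the first class and -0.39 and 0.0 in the last, so the classes overlapped widely. At starts of the same classes the medians were -0.27, -0.34 and -0.39, and -0.22, -0.28 and -0.36. In hosts whose RNA rose by at least 1 log2 unit, 878 regions had a median of -0.08 and 836 in the DAXX arm of -0.06. Centring moves all classes by the same amount. With DAXX siRNA as the comparison, regions of hosts whose RNA rose and fell had medians of 0.04 and 0.01 without crotonate and 0.07 and 0.06 with it.

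**Figure D5:**
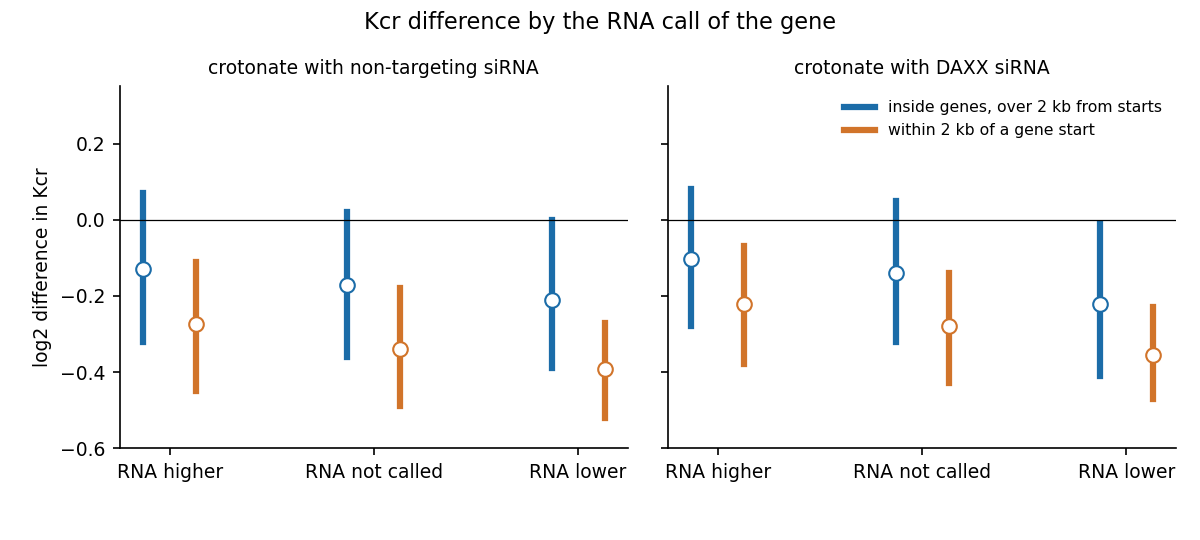
Log2 difference in Kcr with crotonate in the non-targeting (left) and DAXX siRNA arm (right), by the RNA call of the gene; points are medians and lines run from the lower to the upper quartile of regions. Medians inside genes go from -0.13 and -0.10 where RNA rose to -0.21 and -0.22 where it fell, with wide overlap.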

How the data were processed

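Anti-Kcr ChIP and RNA libraries of HCT116 cells were used as 2 tables of the whole series that hold log2 values deposited by the authors. Per the submitters' processing notes, reads were trimmed with Trim Galore 0.6.5 (ChIP) or 0.6.2 (RNA) and cutadapt 2.3, and aligned to GRCh38 with Bowtie2 or HISAT2 2.2.1. The notes on ChIP libraries also name MACS, with no role given. How the regions were derived, and the strand setting, are details not given in the sources used here. ChIP values are log2 reads per region times 1 factor per library, not per length, and the input was left unsubtracted in a separate column. RNA values are log2 RPM. In both, 0 reads stand as 0.9 read. Undoing the factor gave whole reads for 100% of ChIP values (tolerance 0.01 read, up to 100 reads).

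limma 3.58.1 in R 4.3.3 was fitted to the log2 values of all groups together (group means, variance prior trended on level), and p was adjusted by Benjamini-Hochberg over all 49916 regions, or over 17973 genes with at least 0.25 RPM in at least 4 libraries. Calls need an adjusted p under 0.05. The limma steps were tested on simulated data. Libraries 1A and 1B (chi-squared over degrees of freedom 1.006 and 1.013, other pairs 1.036 to 1.379) were averaged. The labels do not say whether replicates are separate cultures, so p-values measure only the spread between these samples, which may be technical. Intervals cover counting error only.

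The rule for names took, in each Kcr comparison, the 2 regions of smallest p each way, the 5 regions highest over input with at least 10 input reads, the region highest per kb in each of 9 gene lists, the 6 hosts with most regions and 3 called hosts each way in each RNA comparison with a mean of at least 1 RPM in the higher group. One region that this rule names is not reported here. Other genes were named after their values were seen. The members and lists were chosen with earlier results of these data known. Motifs were to be counted at region centres; no genome sequence was used here, so they were counted in RefSeq start windows instead. Sequences on chromosome 8 were not considered for printing. Exons and introns were not analysed here.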

Additional observations from a re-analysis of the deposited data

Results flagged for a closer look

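In 9 of the 92 RNA groups of 4 checked for the named hosts, 1 library stood apart from the other 3 by Dixon's criterion, which chance meets in about 1 of 20 groups. CAMTA1 was 40.8 RPM in 1 library with DAXX siRNA and crotonate against 37.1 to 37.5, and EFHD1 1.49 against 0.928 to 1.01 in the same group. PLXNA2 was 0.939 RPM in 1 DAXX siRNA library against 0.567 to 0.625. GAS6 was 97.2 RPM in 1 non-targeting library against 69.5 to 73.7, and 148.0 in 1 DAXX siRNA library against 119.0 to 124.0. NRP1 was 11.6 RPM in 1 non-targeting library against 7.86 to 8.15, and MDGA1 7.54 against 5.25 to 5.5. SPARC was 6.98 RPM in 1 non-targeting library against 8.58 to 8.7. IGSF3 was 39.5 RPM in 1 library with DAXX siRNA and crotonate against 46.9 to 48.2.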

How the results depend on the processing

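The number of regions inside genes was 17047 to 25812 under other distances, widths and gene sets, and the share of expressed hosts 71.0% at 0.5 RPM and 67.2% at 1.0 RPM. Divided by input, the ratio of regions inside genes to those at starts was 0.948 with non-targeting siRNA, 1.03 with crotonate and 0.937 with DAXX siRNA, in place of 0.872, 0.95 and 0.865. For crotonate with non-targeting siRNA, calls inside genes were 28 with 1A and 1B apart, 23 with only the 2 groups compared and 62 with a replicate block, all lower. These are 0.114%, 0.0936% and 0.252% of the regions inside genes, against 0.194%, 0.128% and 0.821% of all regions. Leaving out 1 sample gave 0 to 24 calls (24 without crotonate replicate 2, 6 without replicate 3, which are 0.0977% and 0.0244%, against 0.0881% and 0.02% of all regions). For crotonate with DAXX siRNA they were 1 with 1A and 1B apart and 0 to 118 with 1 sample left out (118 without crotonate replicate 2, 0.48%, against 0.791% of all regions). For DAXX siRNA with crotonate they were 0 to 4, with 1 without replicate 2 of either group and 4 without replicate 3 of the non-targeting samples (0.0163%, against 0.00801% of all regions). For DAXX siRNA without crotonate they were 0 throughout, and centring, quantile normalization, limma-voom and the level filter gave 0 in all 4 comparisons. Where 1 sample stayed in a group, it was assumed to vary like the others. Host RNA calls with 1 library left out were 1115 to 1532, 1113 to 1534, 27 to 50 and 61 to 107, against 1432, 1502, 44 and 115. The 27 came without DAXX siRNA replicate 3. For DAXX siRNA with crotonate they were 69 without DAXX siRNA replicate 2 and 70, 66, 62 and 61 without non-targeting replicates 1 to 4 with crotonate. The replicate block gave 1598, 1676, 66 and 143. Deviations of same-numbered samples from their group means had r of -0.001 to 0.095 in Kcr (median 0.047). For samples of different number r was -0.095 to 0.057 (median -0.024). In RNA r was -0.251 to 0.188 (median 0.065) and -0.187 to 0.309 (median -0.024). The labels do not say whether the numbers pair the samples, and the main fits did not pair them. With 14 input reads in the median region, ratios of single narrow regions over input are imprecise.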

Other observations

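Some hosts outside the named ones were densely marked for their size; they were chosen after their values were seen, among hosts with at least 8 regions. WDR90, a ciliary protein gene (chromosome 16, 649311 to 667833, plus strand), held 8 regions in 18.5 kb, of which 7 reached at least 2 times the input, and all 8 had Kcr differences below 0 with crotonate in the non-targeting arm (median -0.34), where 70.1% of all regions inside genes did (median -0.15), a direction that depends on the scaling. IFT122, a gene of intraflagellar transport, held 17 in 80.5 kb, PRSS3, a trypsinogen gene with close paralogs, 11 in 48.8 kb, HAUS7 10 in 47.9 kb and RSPO4, an R-spondin gene at 0.561 ± 0.286 RPM (SD, n = 4), 9 in 43.9 kb. None of the regions in these genes was called in any comparison. All 5 carried a region at their own start.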
